A study of Mus musculus with 2 samples.

Results

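The miR-30 family was followed in membrane vesicles that adipocytes shed into their culture medium at an early and a late stage of fat cell differentiation. Its guide strands, mmu-miR-30a, mmu-miR-30b, mmu-miR-30c, mmu-miR-30d and mmu-miR-30e, were chosen by name, and they make up 5 of the 567 mouse miRNA entries on the array. The vesicles came from 3T3-L1 cells, a clonal mouse preadipocyte line that was kept in high-glucose DMEM with 10% fetal calf serum and induced with 3-isobutyl-1-methylxanthine at 0.5 mM, dexamethasone at 0.25 µM and insulin at 10 µg/ml. Both groups share this line, serum and induction, and differ in the 48 h over which medium was conditioned: day 2 to 4 for the early vesicles and day 8 to 10 for the late ones. No undifferentiated cells and no medium without cells were analysed here. With 1 array for each window, differences have no replicate check and no p-value, and the errors given are technical, from repeated spots within an array. An effect of the window and one of the preparation or the hybridisation cannot be told apart.

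MicroRNAs guide Argonaute proteins to messenger RNAs that pair with the seed, the short stretch near the 5′ end of the miRNA, and so lower the output of those messages. Members of a miRNA family share a seed and are expected to recognise overlapping targets, while their 3′ parts differ. The miR-30 family is known as a promoter of fat cell differentiation: miR-30a and miR-30d repress Runx2, a transcription factor that drives bone cell fate, and miR-30c represses the BMP receptor Acvr1. The family is carried by 6 genes in the mouse, as pairs on 3 chromosomes. In the RefSeq names of GRCm38.p6, Mir30a lies with Mir30c-2 on chromosome 1, Mir30e with Mir30c-1 on chromosome 4, both inside Nfyc (a subunit of the CCAAT-binding factor NF-Y), and Mir30b with Mir30d on chromosome 15. The miR-30c guide is made from 2 of these genes, so its array entry does not tell them apart.

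The mature sequences show what the members share and where they differ, and 3 of the 5 guides were matched in the RefSeq table (GRCm38.p6). They are given 5′ to 3′ with the seed, bases 2 to 8, in capitals. miR-30a lies at chr1:23272274-23272295 (plus strand), miR-30e at chr4:120772660-120772681 (minus strand), and miR-30c at chr1:23291714-23291736 (plus strand) and chr4:120769584-120769606 (minus strand). miR-384-5p, at chrX:105344332-105344354 (minus strand), is the only other array entry found with this seed and is shown for comparison. The search covered only entries with a sequence matched in that table, which excludes miR-30b and miR-30d, so other carriers of the seed may be missed.
miR-30a: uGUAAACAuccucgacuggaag
miR-30e: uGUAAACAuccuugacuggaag
miR-30c: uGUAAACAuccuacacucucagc
miR-384-5p: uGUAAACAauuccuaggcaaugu
Counted from the 5′ end, miR-30a and miR-30e differ at 1 of 22 bases (C13U). miR-30c shares the first 12 bases with both and differs from miR-30a at 5 of the 22 compared (C13A, G14C, G18C, G19U and A20C). miR-384-5p parts from miR-30a after base 8.

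The array reads the 3′ part of these molecules. Each miRNA is measured by several probes, and the positions that the files give for the probes of an entry share 1 end while the other end moves base by base. For the 7 miR-30 arms with a RefSeq position on the same chromosome, the shared end lay at 1 constant distance from the 3′ end of the miRNA on chromosome 1 and at 1 constant distance on chromosome 4. The guide probes span 13 to 18 bases by these positions. If the shared end is the last base of the miRNA, as in this probe design, the longest probes of the matched guides cover the capital letters below.
miR-30a, 17 bases: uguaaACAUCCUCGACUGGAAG
miR-30e, 17 bases: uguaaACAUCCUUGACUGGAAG
miR-30c, 18 bases: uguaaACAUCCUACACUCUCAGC
The spanned part then holds 3 of the 7 seed bases and all of the bases in which these guides differ. The probes of miR-30a and miR-30e would meet sequences that differ at base 13 alone, and how much signal passes between them was not tested. The files place the miR-30b probes at chr15:68169031-68169047 and the miR-30d probes at chr15:68172819-68172832 at their longest, and the genome build of these positions is not given in the sources used.

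The 5 guides and 140 other miRNAs were detected in both windows, meaning that at least 1 probe had more than 0.5 of its spots well above background on each array. No spot was saturated. Spots of the 672 negative controls had a mean intensity of -0.25 ± 1.14 (SD) at day 2-4 and -0.25 ± 1.26 at day 8-10, and the dimmest detected probe of any miRNA had an intensity of 4.86 and 5.55. Differences are log2 values, day 8-10 minus day 2-4, after each array was divided by the 75th percentile of its 279 probes detected on both arrays (108 and 95.2 intensity units). Counts of higher or lower miRNAs take those detected in both windows whose difference was at least 2-fold and more than 2 spot standard errors (SE).

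miR-30e, miR-30c, miR-30a and miR-30b gave higher scaled signals in the late vesicles, by 2.13-, 2.04-, 1.80- and 1.53-fold, whereas miR-30d was close to level, 1.07-fold lower. The family median was a log2 difference of 0.85, against 0.20 over all miRNAs detected in both windows, members included. Of the 5 members 2 were counted as at least 2-fold higher, where 15.9% of all were, and 0 as at least 2-fold lower, where 7.59% were. That count sits at the threshold: by size of the difference, miR-30e ranked 21 and miR-30c 23 from the top, and 23 miRNAs in all were counted as higher. With the arrays left unscaled, or scaled to the 75th percentile over all probes, the count of members was 0, and of all miRNAs 17 were then higher and 15 lower (unscaled) or 10 higher and 29 lower (all probes), against 23 and 11. Relative to the median of all, the differences were 0.89 for miR-30e, 0.82 for miR-30c, 0.65 for miR-30a, 0.40 for miR-30b and -0.30 for miR-30d.

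**Figure D1:**
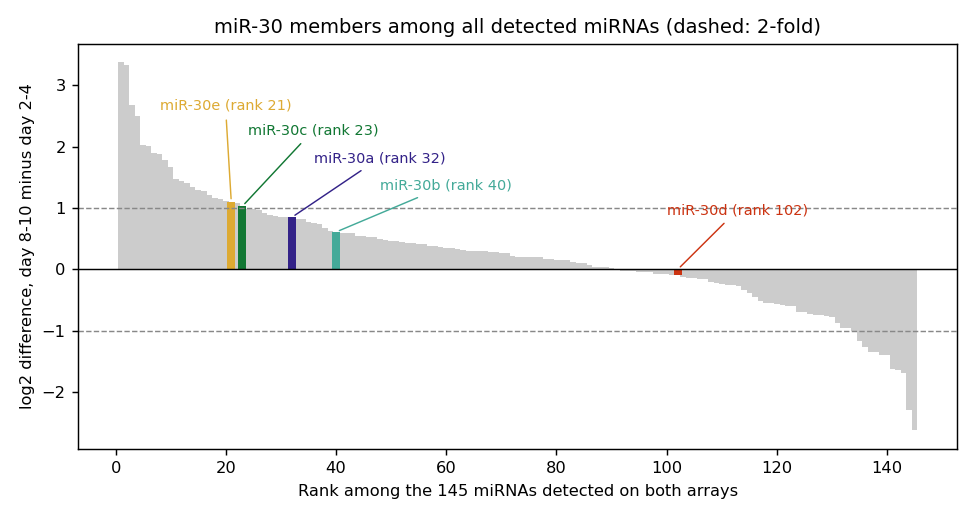
Log2 difference, day 8-10 minus day 2-4, of each miRNA detected on both arrays (y axis) by rank (x axis), with the miR-30 guides in colour and dashed lines at 2-fold. miR-30e (rank 21), miR-30c (23), miR-30a (32) and miR-30b (40) stand in the upper part, while miR-30d (102) lies just below 0. With normexp background correction miR-30d came to 0.00056.

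miR-30e, whose gene lies within Nfyc, had the largest difference of the family. Its 17-base probe had a mean intensity of 25.8 ± 2.97 (SD, n = 10 spots) at day 2-4 and of 51.2 ± 1.87 (n = 10) at day 8-10. The early spots had a median of 26.5 and a highest value of 30.4, and the late spots ran from 48.9 through a median of 50.4 to 54.3, so every late spot was brighter than every early spot before any scaling. The late signal was 2.27 times the early one after scaling (log2 difference 1.18, spot SE 0.055) and 1.98 times before it. The 16-base probe crossed the detection limit. None of its 10 spots was well above background at day 2-4 (mean intensity 2.86 ± 1.60), and all 10 were at day 8-10 (8.67 ± 1.44), which gives at least 2.01-fold against the early array's dimmest detected probe. The member's value of 2.13-fold (log2 difference 1.09, spot SE 0.047) averages both probes and so holds that bound.

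miR-30c was measured by 1 usable probe. Its 18-base probe had an intensity of 21.2 ± 2.69 (SD, n = 10 spots; lowest 16.7, median 21.7, highest 24.5) at day 2-4. At day 8-10 it had 37.8 ± 2.53 (n = 9; 34.5, 37.4 and 42.9), again with no overlap between the windows. The scaled difference was 2.04-fold (log2 1.03, spot SE 0.068), a distance from 2-fold that is smaller than its own SE. The 17-base probe was detected on neither array by the rule. Of its spots 0 of 9 were well above background at day 2-4 (mean 2.19 ± 0.52) and 5 of 10 at day 8-10 (5.57 ± 1.45), just short of the share required. With that probe included at the floor, the log2 difference of miR-30c was 0.77. Floored, the 17-base probe alone had 0.50, which holds the gap of 0.38 between the floors of the arrays. Its scaled means without the floor, both near background, differed 2.89-fold, so 0.77 does not show a smaller change at this probe.

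miR-30a, which shares the chromosome 1 pair with Mir30c-2, was the member with most detected probes, and these gave similar differences. Its 15-base probe had 12.0 ± 2.18 intensity units (SD, n = 7 spots) at day 2-4 and 18.9 ± 1.64 (n = 7) at day 8-10. The 16-base probe had 51.4 ± 3.71 (n = 7) and 79.3 ± 2.48 (n = 7), and the 17-base probe 118 ± 8.23 (n = 6) and 190 ± 11.7 (n = 6). In each of the 3 probes the highest early spot lay below the lowest late spot: 15.3 against 16.8, 58.0 against 75.1, and 129 against 168. The log2 differences of the 3 probes were 0.86, 0.82 and 0.87 (spot SE 0.11, 0.042 and 0.056), and their mean of 0.85 (spot SE 0.043) corresponds to 1.80-fold, short of 2-fold.

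**Figure D2:**
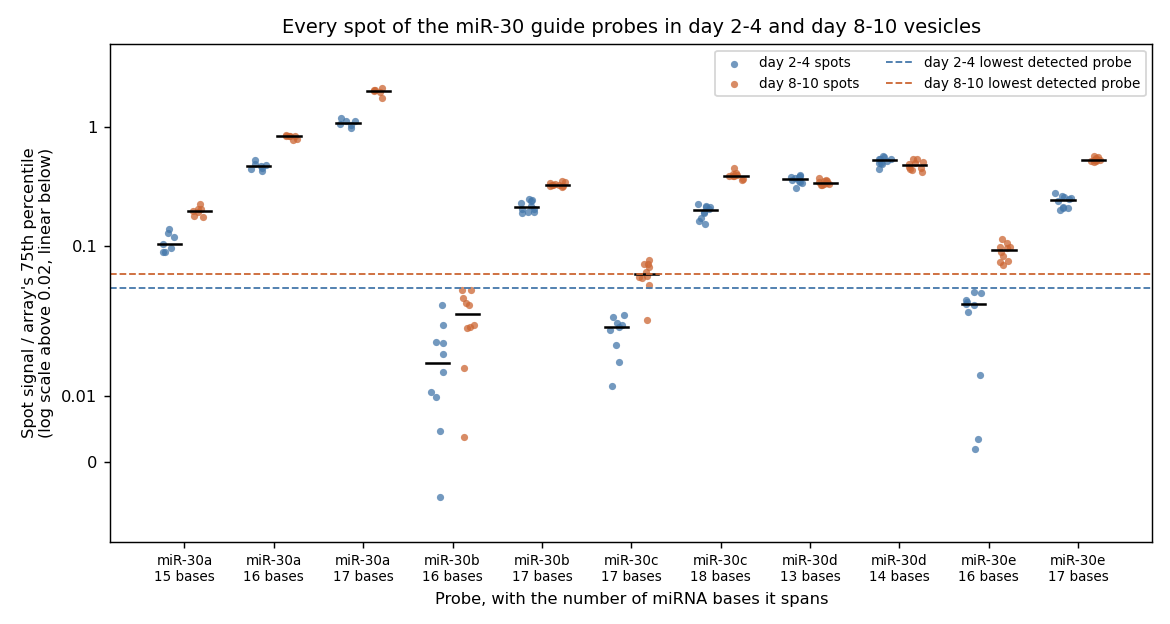
Spot signal divided by the array's 75th percentile (y axis, log scale above 0.02 and linear below) for the 11 guide probes (x axis, with the number of bases spanned); each dot is a spot that was not an outlier, black bars are medians and dashed lines mark each array's dimmest detected probe. Late spots of the miR-30a probes and of the longer miR-30b, miR-30c and miR-30e probes all lie above the early ones, the miR-30d spots overlap, and the shorter probes of miR-30b, miR-30c and miR-30e lie near or under the dashed lines at day 2-4.

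The chromosome 15 pair, miR-30b and miR-30d, had different values. miR-30b was detected by its 17-base probe alone, at 23.7 ± 2.48 intensity units (SD, n = 10 spots; lowest 20.6, median 23.1, highest 27.3) at day 2-4. At day 8-10 the same probe had 31.6 ± 1.17 (n = 10; 29.9, 31.3 and 33.5), above every early spot, and its scaled difference was 1.53-fold (log2 0.61, spot SE 0.051). The 16-base probe of miR-30b had no spot well above background on either array, at 1.51 ± 1.09 and 2.58 ± 1.22.

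miR-30d was the exception in the family. Its 13-base probe had 39.5 ± 2.88 intensity units (SD, n = 10 spots; lowest 33.8, median 40.2, highest 43.0) at day 2-4 and 32.9 ± 1.46 (n = 10; median 32.8, highest 35.5) at day 8-10. Its 14-base probe had 56.5 ± 4.20 (n = 10; 48.1, 57.4 and 62.2) and 45.9 ± 4.04 (n = 10; 40.4, 45.5 and 51.6). On both probes the late signal was dimmer at every spot position before scaling, by 1.20- and 1.23-fold in the means, although the ranges of the windows overlapped. After scaling, 2 of 10 positions were brighter in the late window on each probe. The scaled log2 differences were -0.078 and -0.12 (spot SE 0.040 and 0.053), with a mean of -0.097 (spot SE 0.033). With normexp background correction, which adds an offset of 50 to each signal, the value was 0.00056. It was negative in all other alternatives, so whether miR-30d was lower or level is not settled.

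Counted over the 8 guide probes detected on both arrays, 6 had late spots that were all above the early ones on the scaled values, where 37.6% of the 279 probes did, and 0 had late spots all below, where 26.5% did. Before scaling the counts were the same, 6 and 0, where 31.5% and 33% of the probes did. The 6 probes belong to miR-30a (3), miR-30b, miR-30c and miR-30e, and the remaining 2 to miR-30d. Probes of 1 miRNA read the same molecule and are not independent.

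**Figure D3:**
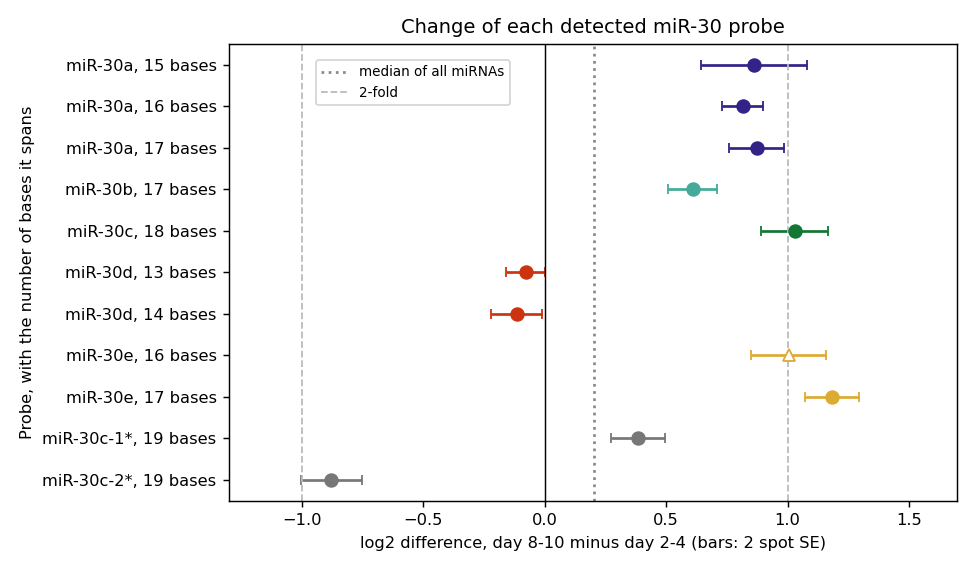
Log2 difference, day 8-10 minus day 2-4 (x axis), of each miR-30 probe detected on at least 1 array (y axis, with the number of bases spanned); bars are 2 spot SE, the open triangle is a probe set against the floor at day 2-4, the dotted line is the median of all miRNAs detected on both arrays and dashed lines mark 2-fold. The 3 miR-30a probes lie between 0.82 and 0.87, both miR-30d probes lie just below 0 (miR-30d came to 0.00056 with normexp), miR-30c-1* lies at 0.38 (-0.12 with the 75th percentile over all probes) and miR-30c-2* at -0.88.

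A single scaling factor for each array cancels in the differences between members. Among the 4 members without a probe at the floor, miR-30a, miR-30b, miR-30c and miR-30d, each of the 6 pairs differed in its change by more than 2 spot SE. These SE hold only the spread of spots within an array. The same count was not made over pairs of other miRNAs, so it marks no trait of the family. The chromosome 15 neighbours miR-30b and miR-30d were 0.71 apart on the log2 scale (spot SE 0.060), and miR-30c and miR-30a were 0.18 apart (spot SE 0.081). The value of miR-30e holds a probe that was not well above background at day 2-4, so its distances above the others are lower bounds at the reported setting only. There miR-30e lay at least 1.19 above miR-30d, and 1.28 above it when probes detected on both arrays alone were used. That gap was 1.06 with detection required of all spots and 0.37 with normexp. At the reported setting miR-30e lay at least 0.24 above miR-30a, from which it differs at base 13 alone. With detection required of all spots their values were 0.99 and 0.88. miR-30e lay below miR-30a with quantile normalization (0.66 and 0.68) and with normexp (0.37 and 0.45). For miR-30e and miR-30c, the neighbours within Nfyc, the values were 1.18 and 1.03 with probes detected on both arrays and 1.48 and 1.02 without the floor, so the size of their gap is not settled. miR-30b and miR-30d took the lowest places in 14 of 14 alternatives, while the order of miR-30e, miR-30c and miR-30a varied: miR-30a lay above miR-30c with all probes of a miRNA (0.85 and 0.77), with quantile normalization (0.68 and 0.67) and with normexp (0.45 and 0.40). Alternatives that change only the scaling factor, and the deposited value table, could not change the order.

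The passenger strands, the partners of the guides in the hairpin that are mostly discarded, were near or below the detection limit except for those of miR-30c. The array has no entry for a passenger of miR-30d among those analysed here. The hairpins of the 2 miR-30c genes show what the passengers add, since the guide (first run of capitals) is the same in both, while the passengers (second run) differ at 3 of 22 bases (G9A, U12C and C22U, Mir30c-1 first). Mir30c-1 lies at chr4:120769534-120769622 (minus strand) and Mir30c-2 at chr1:23291701-23291784 (plus strand, GRCm38.p6).
Mir30c-1: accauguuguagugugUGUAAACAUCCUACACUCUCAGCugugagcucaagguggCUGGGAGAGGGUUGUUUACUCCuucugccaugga
Mir30c-2: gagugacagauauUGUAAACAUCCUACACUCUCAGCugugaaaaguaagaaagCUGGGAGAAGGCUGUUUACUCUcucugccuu
The 2 passengers differed in direction under the main scaling. The 19-base probe of miR-30c-1* had 16.5 ± 0.31 intensity units (SD, n = 4 spots) at day 2-4 and 19.0 ± 1.58 (n = 5) at day 8-10, a log2 difference of 0.38 (spot SE 0.056) that came to -0.12 with the 75th percentile over all probes. The 19-base probe of miR-30c-2* had 16.4 ± 0.76 (n = 10; lowest 15.1, median 16.5, highest 17.7) and 7.89 ± 1.01 (n = 10; 6.22, 7.90 and 9.59). Every late spot of miR-30c-2* was dimmer than every early one, and the scaled signal was 1.84-fold lower at day 8-10 (log2 -0.88, spot SE 0.063), less than 2-fold. Over the alternative settings this value ran from -1.39 (75th percentile over all probes) to -0.080 (normexp). Each passenger rests on 1 probe, the shorter ones having no spot well above background. The miR-30c guide, made from both genes, had the opposite sign to miR-30c-2*.

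The other passengers gave no usable fold. No spot of miR-30b* or miR-30e* was well above background on either array. For miR-30a*, 0 spots were at day 2-4, and 1 of 8 spots of its 17-base probe was at day 8-10. The gene signal that the scanner software sums over probes was 1.28 for miR-30a* (software error 0.98), not flagged as detected, at day 2-4 and 4.43 (software error 1.07), flagged as detected, at day 8-10. The seed relative miR-384-5p was not well above background at any spot. Its 2 probes had means of -0.76 and -0.72 at day 2-4 and of -0.78 and -0.34 at day 8-10, in the range of the negative controls.

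The same software signal, deposited with the spots, sums the same spots over the probes of a miRNA, detected or not, and is no independent reading. It was 19.0 (software error 1.99) and 39.9 (3.61) for miR-30e, 15.5 (1.72) and 28.9 (2.75) for miR-30c, and 76.2 (5.36) and 122 (8.55) for miR-30a. It was 16.7 (1.85) and 22.8 (2.35) for miR-30b and 63.6 (4.68) and 52.5 (3.91) for miR-30d. Scaled to the 75th percentile over the miRNAs detected on both arrays, miR-30e was then the 1 member at least 2-fold higher, with a log2 difference of 1.05, and miR-30d had -0.30. Over this and the 13 other settings tried, the log2 difference ran from 0.37 to 1.48 for miR-30e, from 0.40 to 1.06 for miR-30c and from 0.34 to 0.89 for miR-30a. It ran from 0.10 to 0.64 for miR-30b and from -0.61 to 0.00056 for miR-30d. miR-30d was lowest throughout and miR-30e highest in 11 of 14. Some of these settings change only the scaling factor or use identical intensities, and so could not change this order.

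**Figure D4:**
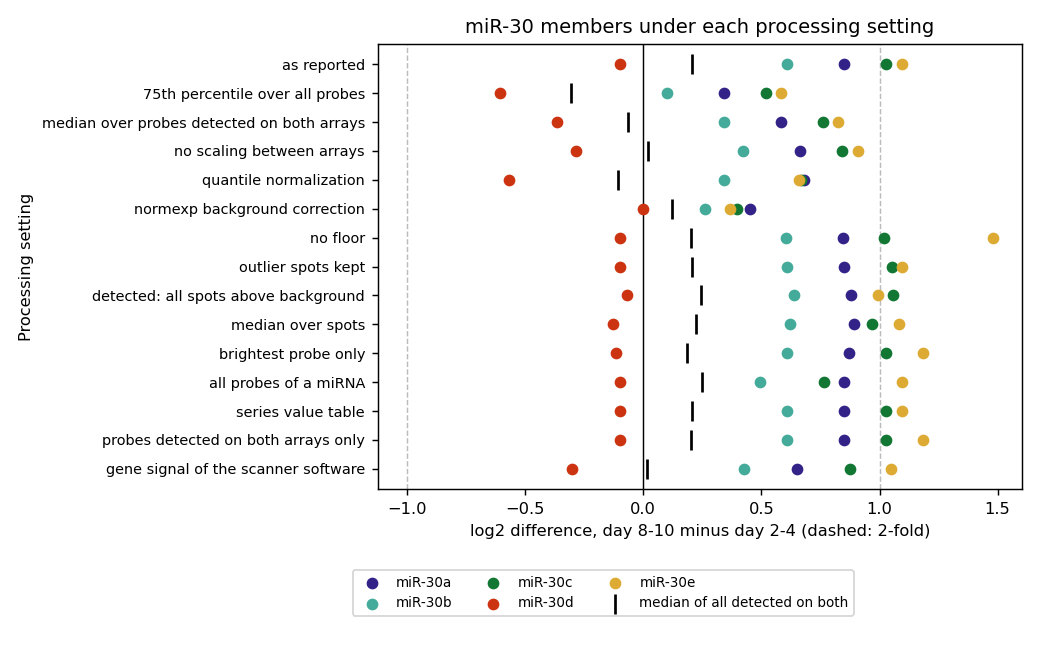
Log2 difference, day 8-10 minus day 2-4 (x axis), of each miR-30 guide under the reported setting and 14 others (y axis), with the median of all miRNAs detected on both arrays as a black tick and dashed lines at 2-fold. miR-30d is the lowest member in 14 of 14 alternatives, at 0.00056 with normexp and negative in the others, and the remaining 4 members lie above the median of all in each of them. Settings that change only the scaling factor, and the deposited value table, keep the order and the distance to the median of all by construction.

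Other miRNAs linked to fat cell differentiation were read on the same scale. Of 14 further miRNAs known to rise in or promote adipogenesis, all were detected in both windows, 7 were counted as higher in the late vesicles and 0 as lower, against 15.9% and 7.59% of all, with a median log2 difference of 1.03. The values ran from -0.15 (miR-146b) to 1.90 (miR-148a), and miR-26a (-0.048) and miR-193b (-0.034) also lay below 0. This list was chosen with results of these arrays known, so its direction is no independent evidence. Of 12 miRNAs known to repress adipogenesis or to fall in it, 9 were detected in either window and 7 in both. Of these 7, 0 were counted as higher and 0 as lower, against 15.9% and 7.59% of all. So few miRNAs cannot show a departure from those shares. Their median was 0.26 with a range from -0.57 to 0.85. miR-155 and miR-138 were detected at day 2-4 alone, with log2 differences of -0.33 and 0.054 against the floor. These are upper bounds, because the late values were raised to a floor that lies 0.38 higher in scaled log2 than the early one. The value of 0.054 thus shows no rise of miR-138. The 4 miRNAs whose difference between the 2 arrays was nearest to the miR-30 median of 0.85 were miR-27b (0.85), miR-29a (0.85), let-7i (0.83) and miR-34b-5p (0.87). With 2 arrays this likeness is a single number for each miRNA.

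Markers of other cell types and of serum were read beside the family. Of 9 miRNAs of blood cells and serum 6 were detected in either window, and the 5 detected in both had differences from -0.58 to 0.20 with a median of 0.043. miR-144 was detected at day 8-10 alone, with a log2 difference of 0.65 against the floor. Of 6 fibroblast and mesenchymal miRNAs 5 were detected in both, 2 of them at least 2-fold lower at day 8-10, against 7.59% of all, with a median of -0.95 and a range from -1.63 to 0.77. Among them miR-143, which the adipogenic list also holds, had the value of 0.77, and miR-145 was not detected. None of 4 muscle and none of 2 endothelial miRNAs was detected. Of 3 liver, 6 epithelial and 3 neural miRNAs 2, 1 and 1 were detected in either window, namely miR-192 and miR-194, miR-205, and miR-128. miR-192, the 1 liver miRNA detected in both windows, was counted as higher at day 8-10 (log2 difference 1.14, 1 probe), against 15.9% of all. The other liver miRNA, miR-194, was detected at day 8-10 alone (0.55 against the floor), and the neural miR-128 had -0.33. The epithelial miR-205 was detected at day 8-10 alone, with a log2 difference of 1.90 against the floor, larger than that of any miR-30 guide. The part of serum miRNA, or of the mixture of cell states, in the miR-30 differences was not tested. Equal masses of RNA (100 ng) were labelled, so these values are relative to the RNA of the vesicles and give no amount per vesicle.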

How the data were processed

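Total RNA of vesicles pelleted from medium by ultracentrifugation was extracted with Trizol, dephosphorylated and labelled with Cy3, per the labels' protocols. Per the file headers, the deposited values are linear spot intensities from Agilent Feature Extraction (version 9.5.3.1): the spot signal minus a fitted background surface, not normalized between arrays. The deposited value table held the same intensity for 24986 of 24986 spots (medians 0.516 and 0.646), uncentred. Each array has 12493 spots, 11340 of them for mouse miRNAs. Neither control spots nor spots marked as outliers (237 early and 249 late) were used. Signals were scaled, raised to the level of the array's dimmest detected probe where below it, log2 transformed, averaged per probe, and averaged over the probes of a miRNA detected on at least 1 array (Python 3.11.15, numpy 2.4.6, pandas 2.3.3). In scaled log2 this floor was -4.48 early and -4.10 late. A probe below it at every spot on both arrays gets a difference of 0.38 from the floors alone. The alternative background correction was normexp with offset 50 (limma 3.58.1). The calculation was run on simulated arrays with known folds. That run checked only changes larger than 2-fold, after the shift of unchanged miRNAs was removed, and says nothing on small differences. The named miRNAs were the 5 guides, their passengers and seed relatives, and the 4 miRNAs nearest to the family median. Other miRNAs named from the lists were chosen after their values were seen. The members, lists and rules were chosen with earlier results of these data known. With 1 array per window the precision is limited by the number of arrays, and no test was run.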

Additional observations from a re-analysis of the deposited data

How the results depend on the processing

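Of the 14 alternatives, 13 were planned and 1, the use of probes detected on both arrays only, was added after the data were seen, as were the results on the gap between members and on the miR-30c passengers. The family median of 0.85 stayed above 0 and above the median of all detected miRNAs in 14 of 14, by 0.25 (normexp) to 0.76 (quantile). It was 0.34 with the 75th percentile over all probes, 0.58 with the median over probes detected on both arrays, 0.66 without scaling, 0.66 with quantile normalization, 0.37 with normexp and 0.65 with the software's gene signal. The number of members at least 2-fold higher, 2 as reported, was 0 under each of these except the gene signal, and 1 with the gene signal, with detection required of all spots, with the median over spots and with all probes of a miRNA. The number at least 2-fold lower was 0 in 14 of 14. miR-30d came to 0.00056 with normexp, and miR-30c-1* to -0.12 with the 75th percentile over all probes. The median of all miRNAs, 0.20 as reported, was -0.30, -0.063 and -0.11 with the 75th percentile over all probes, the median over detected probes and quantile normalization, and 16 were then counted higher and 19 lower under the second and 16 and 17 under the third, against 5 and 5 with normexp and 19 and 17 with the gene signal. The gap between miR-30e and miR-30d, 1.19 as reported, ran from 0.37 (normexp) to 1.58 (no floor). miR-30e was the highest member in 11 of 14. A change of the scaling factor alone moved all miRNAs by the same amount, and the deposited value table held identical intensities. Such settings could not change the order of members or their distance to the median of all, although they are counted among the 14. The family median stayed 0.65 above that of all with the 75th percentile over all probes, with the detected-probe median and unscaled. The cause of the other shifts was not tested. No paired analysis was possible because each window has 1 array. Dim probes, under about the intensities of 4.86 and 5.55 of the dimmest detected ones, have no order.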
